A study of Mus musculus with 9 samples.

Results

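Antigen presentation by the major histocompatibility complex (MHC) was followed in 43 genes, measured on 9 Affymetrix Mouse Gene ST 1.0 arrays of mouse bone marrow. The genes were every array row whose only gene symbol began with H2-, the prefix of the mouse MHC, together with Cd74, B2m, Tap1, Tap2, Tapbp, Ciita, Nlrc5, Psmb8, Psmb9, Psmb10, Erap1, Calr, Canx and Pdia3. They occupied 61 of the 21789 rows with exactly 1 gene symbol. Nlrc5 had 19 rows, the other genes 1 each, and each gene was represented by its row with the highest mean. By role they comprised 20 class I heavy chains, 8 genes of the class I peptide pathway, 3 folding chaperones, 9 class II genes with Cd74, and the transactivators Ciita and Nlrc5. The remaining gene, H2-Ke6, encodes a hydroxysteroid dehydrogenase and no MHC chain, so 42 genes belong to the MHC pathways. The classical heavy chain genes H2-K1 and H2-D1 have no row of their own on this array and are described from rows that several H2 genes share.

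The arrays compare sorted stromal cells, with and without a mark of Il7 activity, with each other and with whole marrow. Il7 is the cytokine that B cell precursors need. A single array held YFP-negative cells (CD45-Lin-CD54+BP1+YFP-, 2300 cells) and 3 arrays held YFP-positive cells (CD45-Lin-YFP+CD54+BP1+), both from IL7-Cre Transgenic/Rosa-eYFP hetero mice, in which a Cre recombinase driven by Il7 sequences permanently turns on a YFP reporter, so that past as well as present activity is labelled. 3 arrays held cells of the same CD45-Lin-CD54+BP1+ gate from wild type mice, and 2 arrays held total bone marrow cells of wild type mice, which were not sorted. All mice were young adults of the C57Bl/6J strain by the sample labels, and the sorted cells came from mice of 6 to 12 weeks. Sorted samples held 1800 to 10000 cells, and total marrow entered with 10 ng of RNA. The labels do not say whether the arrays of a group were separate animals, so p-values measure the spread between these samples, which may be technical.

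Class I molecules display peptides from inside the cell to CD8 T cells. The proteasome cuts the peptides, the Tap1 and Tap2 transporter carries them into the endoplasmic reticulum, and tapasin (Tapbp), calreticulin (Calr), calnexin (Canx) and the oxidoreductase Pdia3 help to fold and load a heavy chain paired with beta-2 microglobulin (B2m). Class II molecules display peptides of engulfed material to CD4 T cells, are guarded by the invariant chain Cd74 and loaded with the help of H2-DM, and are made mainly by B cells, dendritic cells and macrophages. Ciita switches on the class II genes, and Nlrc5 serves the class I genes. Most of the 43 genes lie together, 34 of them on chromosome 17.

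Promoter stretches of 5 genes are shown to set 2 class II genes that were called lower against total marrow beside 3 class I genes, of which Tap1 was not called and the others were called higher in YFP-positive and wild-type cells (H2-K1 by a row it shares). They are RefSeq sequence of build GRCm38.p6, running 5′ to 3′ on the coding strand from base -230 to base -1 before the annotated start. H2-Aa (chr17:34287824-34288053, minus strand) and H2-Eb1 (chr17:34305637-34305866, plus strand) encode class II chains, and the capitals mark the Y box, the NF-Y motif of MHC promoters, searched as CTGATTGG on both strands. Tap1 (chr17:34187326-34187555, plus strand) carries the Y box in the opposite orientation. H2-Q4 (chr17:35379387-35379616, plus strand) and H2-K1 (chr17:34000348-34000577, minus strand) encode class I heavy chains, and their capitals mark an interferon-stimulated response element core, searched as GAANNGAAA on both strands, and in H2-K1 also the NF-kB site of class I enhancers, searched as GGGATTCCC.
H2-Aa: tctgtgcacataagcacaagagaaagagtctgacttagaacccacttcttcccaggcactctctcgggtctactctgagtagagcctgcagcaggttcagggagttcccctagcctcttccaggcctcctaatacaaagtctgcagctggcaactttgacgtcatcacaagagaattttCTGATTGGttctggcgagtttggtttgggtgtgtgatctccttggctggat
H2-Eb1: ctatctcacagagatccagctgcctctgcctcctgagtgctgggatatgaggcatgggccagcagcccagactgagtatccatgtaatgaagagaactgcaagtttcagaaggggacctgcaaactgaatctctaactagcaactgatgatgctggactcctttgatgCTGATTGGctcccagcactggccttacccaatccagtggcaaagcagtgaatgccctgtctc
Tap1: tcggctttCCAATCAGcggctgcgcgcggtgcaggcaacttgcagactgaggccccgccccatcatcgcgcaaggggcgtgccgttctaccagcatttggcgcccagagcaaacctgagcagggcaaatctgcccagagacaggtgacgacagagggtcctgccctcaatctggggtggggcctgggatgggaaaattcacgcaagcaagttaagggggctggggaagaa
H2-Q4: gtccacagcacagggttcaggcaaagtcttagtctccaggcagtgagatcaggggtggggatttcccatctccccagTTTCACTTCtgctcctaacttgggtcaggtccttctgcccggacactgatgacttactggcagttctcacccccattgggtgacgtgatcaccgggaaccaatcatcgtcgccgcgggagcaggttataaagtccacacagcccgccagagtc
H2-K1: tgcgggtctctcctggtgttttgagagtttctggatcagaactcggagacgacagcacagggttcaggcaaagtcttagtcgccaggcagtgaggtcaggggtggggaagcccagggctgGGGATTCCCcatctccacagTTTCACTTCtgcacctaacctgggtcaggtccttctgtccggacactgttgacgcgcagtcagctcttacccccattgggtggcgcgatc

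Windows of 300 bases, 250 before and 50 after the start, were available for 32 of the 43 genes. The Y box stood in 4 of 6 class II windows, those of H2-Oa, H2-Aa, H2-Eb1 and H2-Eb2, with its first base between 103 and 46 bases before the start. It stood in 8 of 15 heavy chain windows, all of them of the H2-M group (H2-M1, H2-M9, H2-M11 and 5 H2-M10 genes), and in 4.1% of all 32851 promoter windows. Among genes of shared rows it was also found in H2-D1 (first base -53), H2-Q6 (-55) and H2-T23 (-52), and in H2-K1 just past the start from which the printed stretch was taken, outside that stretch. In the peptide pathway it was found in 2 of 7 windows, those of Psmb9 and Tap1, which are divergent neighbours and hold the same copy. The interferon core was found in 4 of 15 heavy chain windows (H2-Q4, H2-Q10, H2-M3 and H2-M2), in none of the 6 class II windows and in 7.52% of all windows. No member with a window had the NF-kB site in the exact letters searched. Those letters stand in 0.353% of all windows and were found in H2-K1, H2-D1 and H2-Q6, all genes of shared rows. The printed H2-Q4 stretch reads gggatttccc before its interferon core, a variant that was not searched. These are matches of letters in a window and say nothing about what is bound there.

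The sorted arrays were high in stromal and low in most haematopoietic markers tested. All 9 reticular stroma markers tested (among them Lepr, Cxcl12 and Il7) were higher in each sorted group than in total marrow, and all 7 leucocyte and all 6 B cell markers were lower. The leucocyte list includes Ptprc, the gene of the CD45 that the sort excluded. Of 7 neutrophil markers, 5 were lower in YFP-positive, 6 in wild-type and 5 in YFP-negative cells. As deposited S100a8 read 11.01, 9.21 and 4.36 in YFP-positive cells, 9.29, 5.96 and 4.04 in wild-type sorted cells, and 12.56 and 12.61 in total marrow. The YFP-negative array had a median of 3.46 on the deposited log2 scale, against 4.51 to 4.60 on the other 8 arrays. Comparisons with that array therefore used values after a cyclic loess normalization of all 9 arrays, which brought the medians to 4.51 to 4.57, and the remaining comparisons used the values as deposited. The median of all values was 4.43 as deposited and 4.53 after loess. A group below it is called dim here, and a change against a dim group is read as a lower bound. Pairwise tests came from a limma fit over all 21789 rows, a gene was called at a Benjamini-Hochberg adjusted p under 0.05, and all intervals are 95% intervals.

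**Figure D1:**
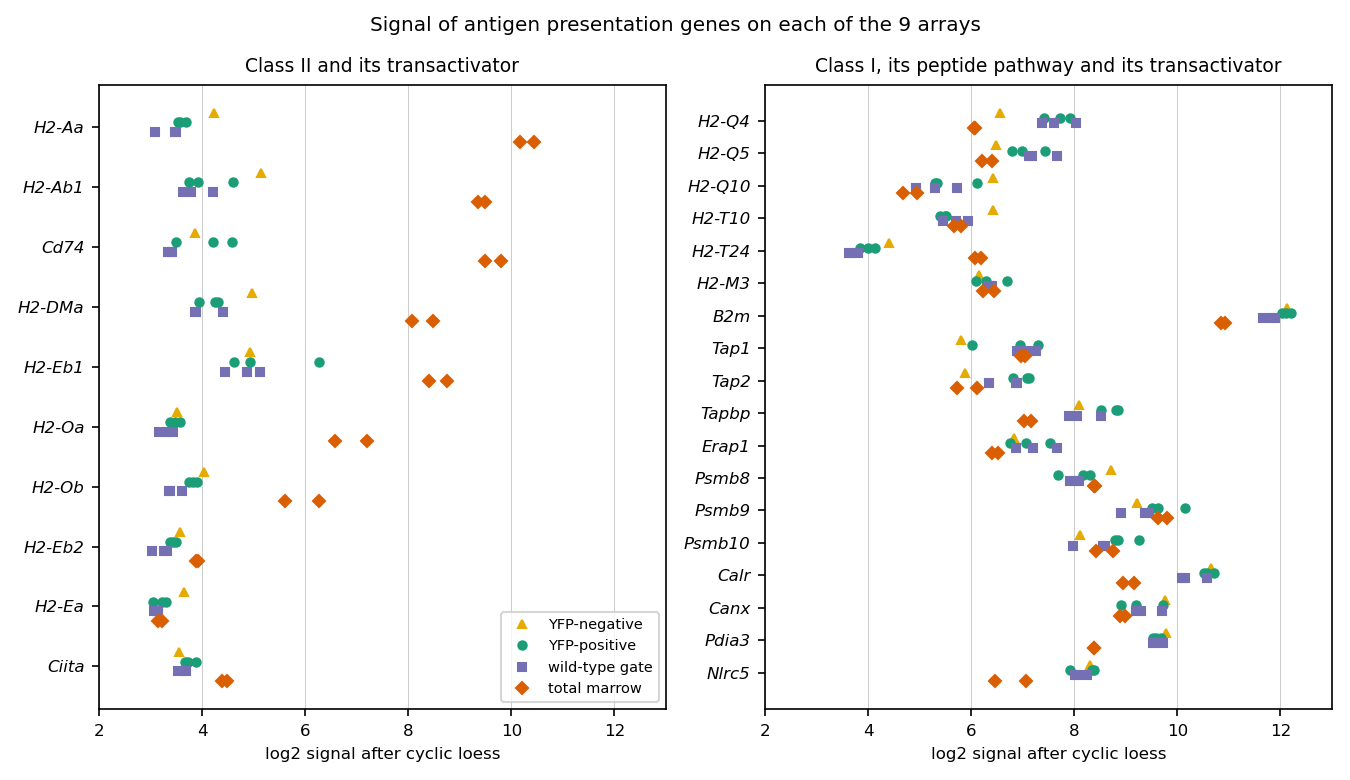
Log2 signal after cyclic loess of 10 genes of the class II pathway with its transactivator (left) and 18 class I genes (right), 1 point per array: triangles YFP-negative, circles YFP-positive, squares wild-type gate, diamonds total marrow. H2-Aa stood between 3.09 and 4.23 on the 7 sorted arrays and at 10.16 and 10.44 on the total marrow arrays, while B2m stood higher on every sorted array than on either total marrow array.

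Class II genes were far lower in the sorted stroma than in total marrow. Against total marrow, YFP-positive cells were lower in 7 of the 9 class II genes and higher in none, and wild-type sorted cells were lower in 8 and higher in none. In the YFP-negative cells 7 were lower and none higher. The median change of the 9 genes was -3.47, -3.78 and -3.37 on the log2 scale in YFP-positive, wild-type and YFP-negative cells, beside a median over all rows of 0.09, 0.00 and -0.00. Called rows made up 29.5% of all rows in the YFP-positive comparison (11% higher, 18.5% lower), 24.3% in the wild-type comparison (10.4% higher, 13.9% lower) and 26.2% in the YFP-negative comparison (13% higher, 13.2% lower). These 3 comparisons share the same total marrow arrays. In such bulk samples, fewer cells of a type and less RNA per cell cannot be told apart.

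H2-Aa, the alpha chain of the I-A molecule, had log2 values of 3.61, 3.74 and 3.54 in YFP-positive cells, 3.57, 3.61 and 3.13 in wild-type sorted cells, and 10.52 and 10.22 in total marrow. All 6 sorted arrays were dim and the groups lay far apart. The change was -6.74 in YFP-positive cells (SE 0.18, adjusted p = 2.4e-07) and -6.93 in wild-type cells (SE 0.18, adjusted p = 1.9e-07), at least 107-fold and 122-fold. In the YFP-negative array H2-Aa stood at 4.23 after loess, against 10.44 and 10.16 in total marrow, a change of -6.07 (SE 0.21, adjusted p = 2.2e-06).

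Its partner H2-Ab1, the I-A beta chain, read 3.80, 3.98 and 4.59 in YFP-positive cells, 3.75, 4.38 and 3.86 in wild-type sorted cells, and 9.64 and 9.46 in total marrow. The log2 change was -5.42 in YFP-positive cells (adjusted p = 4.0e-06) and -5.55 in wild-type cells (adjusted p = 3.3e-06). The invariant chain Cd74, which occupies the groove of new class II molecules, read 3.52, 4.27 and 4.61 in YFP-positive cells, 3.42, 3.52 and 3.41 in wild-type sorted cells, and 9.88 and 9.55 in total marrow. Only YFP-positive replicate 3 stood above the median of all values in both genes, and no sorted array came near total marrow. Cd74 changed by -5.58 in YFP-positive cells (adjusted p = 4.8e-06) and by -6.26 in wild-type cells (adjusted p = 2.4e-06). After loess the YFP-negative array had H2-Ab1 at 5.15 and Cd74 at 3.86, changes of -4.28 (adjusted p = 1.5e-04) and -5.79 (adjusted p = 4.0e-05).

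H2-Eb1, the beta chain of I-E, was the class II gene with the widest spread. It read 5.01, 4.70 and 6.22 in YFP-positive cells, 4.60, 5.37 and 5.04 in wild-type sorted cells, and 8.99 and 8.58 in total marrow. YFP-positive replicate 3 stood above every other sorted array and still more than 2 log2 units below total marrow. The change was -3.47 in YFP-positive cells (SE 0.44, adjusted p = 7.7e-04), -3.78 in wild-type cells (adjusted p = 4.8e-04) and -3.65 in the YFP-negative array (4.92 after loess, adjusted p = 0.0047). Without YFP-positive replicate 3 the class II median was -3.93.

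The loading factors of class II followed. H2-DMa, a chain of the peptide exchange factor H2-DM, read 4.29, 3.98 and 4.33 in YFP-positive cells, 4.49, 3.98 and 3.93 in wild-type sorted cells, and 8.57 and 8.13 in total marrow. It changed by -4.15 (adjusted p = 5.5e-06), by -4.21 in wild-type cells (adjusted p = 4.7e-06) and by -3.30 in the YFP-negative array (4.97 after loess, adjusted p = 1.6e-04). H2-Oa and H2-Ob form H2-DO, the inhibitor of H2-DM known from B cells. H2-Oa read 3.39, 3.63 and 3.63 in YFP-positive cells, 3.34, 3.39 and 3.09 in wild-type sorted cells, and 7.13 and 6.53 in total marrow. H2-Ob read 3.76, 3.96 and 3.97 in YFP-positive cells, 3.63, 3.31 and 3.31 in wild-type sorted cells, and 6.20 and 5.57 in total marrow. Both were dim on all sorted arrays, also in the YFP-negative array (3.51 and 4.04 after loess). Their changes in YFP-positive cells were -3.28 (adjusted p = 1.1e-05) and -1.99 (adjusted p = 0.000245), in wild-type cells -3.56 (adjusted p = 6.3e-06) and -2.47 (adjusted p = 6.7e-05), and in the YFP-negative array -3.37 (adjusted p = 6.7e-05) and -1.90 (adjusted p = 0.0016).

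A row shared by H2-DMb2 and H2-DMb1, the beta chains of H2-DM, read 4.92, 4.46 and 5.64 in YFP-positive cells, 4.79, 4.32 and 5.18 in wild-type sorted cells, and 8.07 and 7.71 in total marrow. Rows with several symbols were tested in a second fit over 23410 rows, in which 30.5%, 24.7% and 25.9% of rows were called against total marrow in YFP-positive, wild-type and YFP-negative cells. This row changed by -2.88 (adjusted p = 7.7e-04), -3.12 (adjusted p = 5.1e-04) and -3.62 (adjusted p = 0.0022).

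H2-Ea and H2-Eb2 stood apart from the other class II genes because total marrow also held little of them. H2-Ea, the I-E alpha chain, is not transcribed in mice of the b haplotype such as C57BL/6. It read 3.27, 3.38 and 3.26 in YFP-positive cells, 3.17, 3.02 and 3.15 in wild-type sorted cells, and 3.21 and 3.13 in total marrow, with changes of 0.13 and -0.06 that were not called. H2-Eb2, a further beta chain gene, read 3.40, 3.50 and 3.69 in YFP-positive cells, 3.33, 3.21 and 2.997 in wild-type sorted cells, and 3.85 and 3.89 in total marrow. All these values were dim, so the sizes are not resolved, although the wild-type change of -0.69 was called (adjusted p = 0.0097, and 0.061 and 0.071 without total marrow replicate 1 and 2). After loess, the YFP-negative array had 3.65 for H2-Ea and 3.56 for H2-Eb2, neither called. Of the 9 class II genes, 7 stood above the median of all values in total marrow and 5 below it on all 7 sorted arrays as deposited.

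Ciita, the coactivator of class II promoters, was low throughout and lower in the sorted cells. It read 3.91, 3.79 and 3.85 in YFP-positive cells, 3.69, 3.60 and 3.48 in wild-type sorted cells, and 4.42 and 4.35 in total marrow. The groups did not overlap, but every value was dim, so the size of these changes is not resolved: -0.54 in YFP-positive cells (adjusted p = 0.010), -0.80 in wild-type cells (adjusted p = 0.0015) and -0.89 in the YFP-negative array (3.54 after loess, adjusted p = 0.0040). Without total marrow replicate 1 the YFP-positive call was lost (adjusted p = 0.083). Among 19 interferon and MHC regulators outside the 43 genes, 2 were higher, 3 lower and 14 not called in YFP-positive cells. Of all rows 11% were called higher and 18.5% lower there, so the counts of this list do not stand out. Irf8, a transcription factor of myeloid and B lineage cells, changed by -1.95, the NF-Y subunit Nfyb by -1.44 and the RFX subunit Rfxap by -1.01. The interferon receptor chain Ifnar2 changed by 1.09. Rfx5 (-0.29) and Nfya (-0.26), subunits of the complexes that bind the X and Y boxes, were not called.

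Genes of class II processing and trafficking were divided. Of 12 measured genes of that list, which also holds Cd63, Lamp1, Marchf1 and Marchf8, 4 were lower, 3 higher and 5 not called in YFP-positive cells. Of all rows 18.5% were called lower and 11% higher there. Cathepsin S (Ctss), which cleaves the invariant chain in B cells and dendritic cells, read 3.96, 3.60 and 3.61 in YFP-positive cells, 3.48, 3.38 and 3.50 in wild-type sorted cells, and 9.70 and 9.68 in total marrow, a change of -5.97 in YFP-positive cells (adjusted p = 1.8e-07). Ctse changed by -5.65 and the lysosomal reductase Ifi30 by -4.23. Cathepsin L (Ctsl), which takes the place of cathepsin S in thymic epithelium, moved the other way: it read 10.08, 9.96 and 9.79 in YFP-positive cells, 10.25, 10.41 and 10.102 in wild-type sorted cells, and 7.97 and 7.75 in total marrow, a change of 2.09 (adjusted p = 2.8e-05). Cathepsins B (Ctsb, 0.43) and D (Ctsd, -0.22) were not called.

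**Figure D2:**
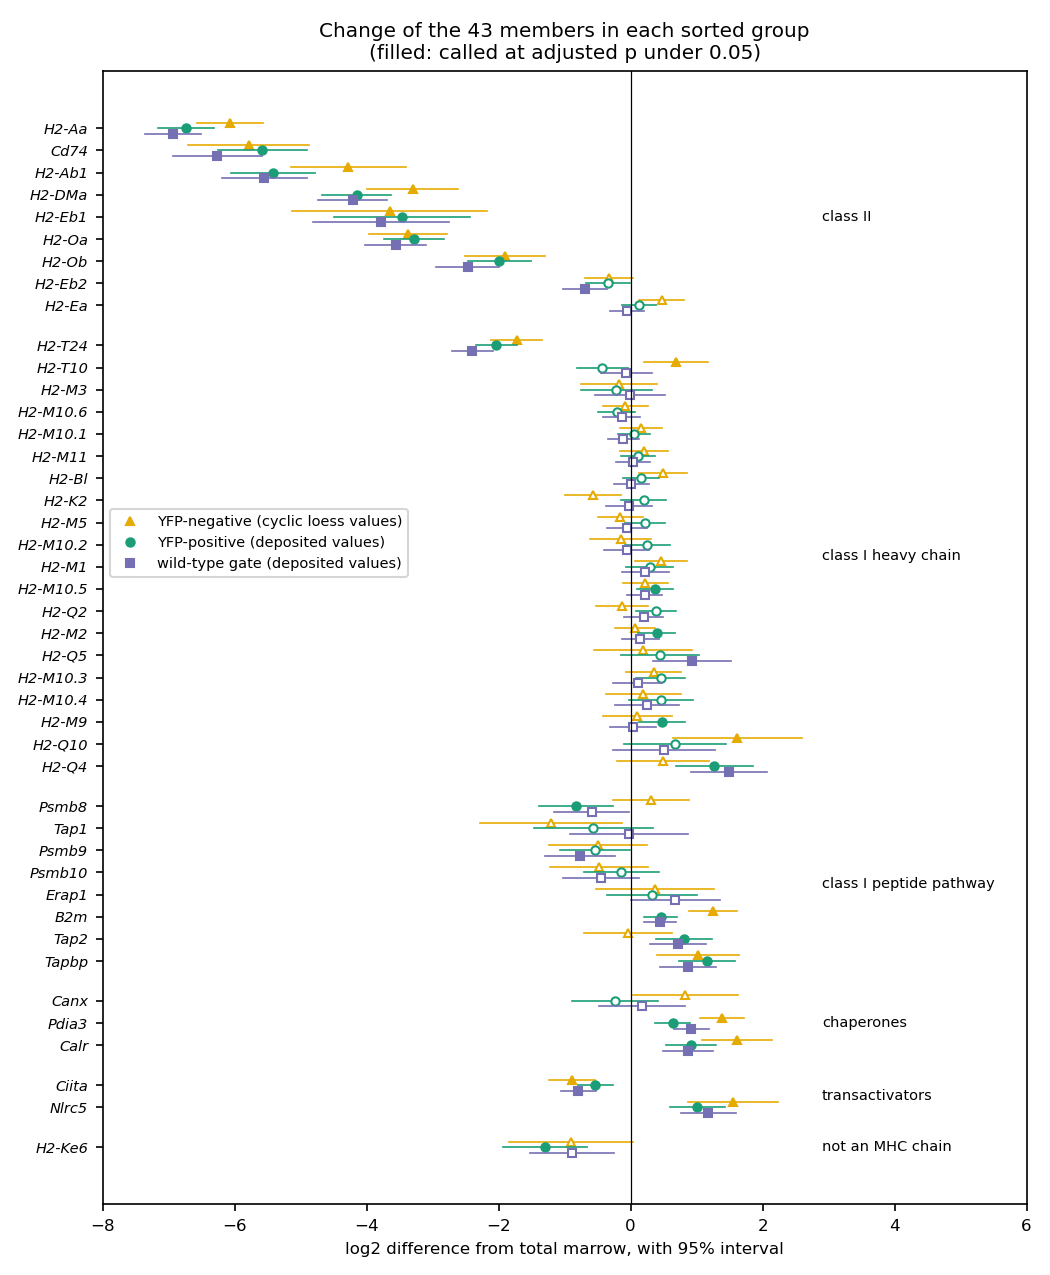
Log2 difference of each sorted group from total marrow for the 43 genes, with 95% intervals, ordered by class: triangles YFP-negative (cyclic loess values), circles YFP-positive and squares wild-type gate (deposited values), filled where called. The class II genes reach -6.93 at the left, 1 heavy chain (H2-T24) lies beyond -1.5, and most class I genes lie between -1 and 2.

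Most class I heavy chains were not called. Set against total marrow, YFP-positive cells had 4 of the 20 higher and 1 lower, with 2 higher and 1 lower in wild-type sorted cells, and 2 higher and 1 lower in YFP-negative cells. Of all rows 29.5%, 24.3% and 26.2% were called in these comparisons. The median change of the heavy chains was 0.27, 0.03 and 0.17, close to the median of all rows. On 12 of the 20, all H2-M genes other than H2-M3 together with H2-Bl, every array was dim (2.16 to 4.33 as deposited). The H2-M1, H2-M9, H2-M10 and H2-M11 genes are known for their use in vomeronasal sensory neurons. Of these 12, H2-M2, H2-M9 and H2-M10.5 were called higher in YFP-positive cells, by 0.39, 0.48 and 0.37 between dim groups, and none was called in the other comparisons with total marrow.

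H2-Q4, a non-classical heavy chain of the Q region, had the largest rise in YFP-positive and wild-type cells among heavy chains with a row of their own. It read 7.88, 8.02 and 7.30 in YFP-positive cells, 7.83, 7.75 and 8.30 in wild-type sorted cells, and 6.53 and 6.41 in total marrow. No sorted array of these groups overlapped total marrow. The change was 1.27 in YFP-positive cells (SE 0.25, adjusted p = 0.0070) and 1.49 in wild-type cells (SE 0.25, adjusted p = 0.0034). In the YFP-negative array it read 6.56 after loess, against 6.07 and 6.06 in total marrow, a change of 0.49 that was not called (adjusted p = 0.28). Leaving out total marrow replicate 2 raised the YFP-positive adjusted p to 0.055.

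H2-Q5 read 7.13, 7.53 and 6.69 in YFP-positive cells, 7.89, 7.54 and 7.38 in wild-type sorted cells, and 6.63 and 6.71 in total marrow. YFP-positive replicate 3 lay between the total marrow arrays, and the change was called in wild-type cells (0.93, adjusted p = 0.032) and not in YFP-positive cells (0.44, adjusted p = 0.23). That call was lost without either total marrow array (adjusted p 0.17 and 0.13), and without wild-type replicate 1 (0.093) or 2 (0.070). H2-T24, a non-classical gene of the T region, was lower in every sorted group: it read 3.84, 4.17 and 4.12 in YFP-positive cells, 3.65, 3.66 and 3.74 in wild-type sorted cells, and 6.14 and 6.02 in total marrow. Its changes were -2.04 (adjusted p = 1.6e-05), -2.40 (adjusted p = 6.0e-06) and, with 4.39 after loess in the YFP-negative array, -1.73 (adjusted p = 2.3e-04).

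H2-Q10 and H2-T10 were called against total marrow in the YFP-negative array alone. H2-Q10, a secreted heavy chain made by liver, stood at 6.42 after loess in that array, at 6.11, 5.29 and 5.34 in YFP-positive cells, at 5.29, 5.72 and 4.93 in wild-type sorted cells, and at 4.94 and 4.67 in total marrow, a change of 1.62 (adjusted p = 0.026, and 0.068 and 0.10 without total marrow replicate 1 and 2). On deposited values the H2-Q10 change was 0.21 (adjusted p = 0.67). H2-T10, whose protein is a ligand of gamma delta T cells, also stood at 6.42, against 5.81 and 5.67 in total marrow, a change of 0.68 (adjusted p = 0.047). The H2-T10 call was lost without any 1 of the total marrow or YFP-positive arrays or wild-type replicate 2 (adjusted p 0.055 to 0.17). On the deposited values, on which the whole array is lower, the H2-T10 change was -0.76 (adjusted p = 0.017). H2-M3, which presents formylated peptides, read 6.83, 6.37 and 6.01 in YFP-positive cells, 6.54, 6.66 and 6.62 in wild-type sorted cells, and 6.77 and 6.47 in total marrow, and was called in no comparison. H2-Q2 and H2-K2 were called in no comparison with total marrow either, with changes of -0.57 to 0.38.

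The rows that hold the classical genes rose in YFP-positive and wild-type sorted cells, and in the YFP-negative array only after loess. A row annotated to H2-K1, LOC547349 and H2-D1, named in that order, read 11.15, 11.07 and 10.77 in YFP-positive cells, 11.23, 11.27 and 11.05 in wild-type sorted cells, and 10.02 and 9.98 in total marrow. A row with H2-D1 named first read 11.89, 11.69 and 11.38 in YFP-positive cells, 11.77, 11.94 and 11.69 in wild-type sorted cells, and 11.01 and 10.80 in total marrow. Every sorted array of these groups exceeded both total marrow arrays in both rows. The row with H2-K1 first changed by 1.00 in YFP-positive cells (adjusted p = 0.0016) and by 1.19 in wild-type cells (adjusted p = 6.5e-04). The row with H2-D1 first changed by 0.75 (adjusted p = 0.014) and by 0.90 (adjusted p = 0.0069). In the YFP-negative array the changes after loess were 1.16 (adjusted p = 4.2e-04) and 0.71 (adjusted p = 0.011). As deposited, a scale on which the whole array is lower, it read 9.78 and 10.25, below both total marrow arrays. The changes there were -0.22 (adjusted p = 0.33) and -0.66 (adjusted p = 0.035). Since the rows name both genes, neither change can be assigned to 1 of them.

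Of the other shared rows, that of H2-T9, H2-T22 and H2-T10 changed by 1.09 in YFP-positive cells (adjusted p = 0.037), 1.21 in wild-type cells (adjusted p = 0.029) and 1.79 in the YFP-negative array (adjusted p = 0.016). The row of H2-Q1 and H2-Bl changed by 0.47 (adjusted p = 0.046), 0.15 (not called) and 0.85 (adjusted p = 0.014). The YFP-negative changes are after loess and the others as deposited. On deposited values the YFP-negative array read 4.17 for the row of H2-Q1 and H2-Bl, below total marrow at 4.42 and 4.57. For the row of H2-T9, H2-T22 and H2-T10 it read 7.18, against 6.92 and 6.78. The rows with H2-Q6 and H2-Q8, with H2-T23, and with H2-T3 and H2-T18 were not called against total marrow.

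Beta-2 microglobulin, the light chain of all class I molecules, was higher in sorted cells. B2m read 12.15, 12.10 and 12.04 in YFP-positive cells, 12.16, 12.06 and 12.03 in wild-type sorted cells, and 11.62 and 11.66 in total marrow. The spread within each group was under 0.1 (SD 0.06, 0.07 and 0.02), and the change was 0.46 in YFP-positive cells (adjusted p = 0.014) and 0.44 in wild-type cells (adjusted p = 0.018). After loess the changes were 1.23 and 0.92, and 1.25 in the YFP-negative array (12.13, adjusted p = 0.000955), where the deposited values gave 0.09 (adjusted p = 0.57). The call was lost without total marrow replicate 1 (adjusted p 0.099 for YFP-positive and 0.12 for wild-type cells) or 2 (0.072 and 0.088), and in wild-type cells also without wild-type replicate 1 (0.063).

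Tapasin was called in every sorted group by its own row. Tapbp, which holds the heavy chain at the transporter, read 8.67, 8.93 and 8.67 in YFP-positive cells, 8.31, 8.31 and 8.76 in wild-type sorted cells, and 7.71 and 7.47 in total marrow. It changed by 1.16 (SE 0.18, adjusted p = 0.0022), by 0.87 in wild-type cells (adjusted p = 0.010) and by 1.02 in the YFP-negative array (8.10 after loess, adjusted p = 0.028). The call was lost in wild-type cells without total marrow replicate 2 (adjusted p = 0.090) and in the YFP-negative array without replicate 1 (0.089) or 2 (0.12) of total marrow. On deposited values the YFP-negative change was -0.37 (adjusted p = 0.20). A pair of rows annotated to both Rps3a1, a ribosomal protein gene, and Tapbp went the other way in YFP-positive cells (-0.90, adjusted p = 0.0060, and -0.92, adjusted p = 0.0050). In wild-type cells these rows were not called (-0.49 each), and in the YFP-negative array after loess 1 was called higher (0.57, adjusted p = 0.031) and the other was not (0.46, adjusted p = 0.078).

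The subunits of the peptide transporter gave different values. Tap2 read 7.22, 6.90 and 7.05 in YFP-positive cells, 7.10, 6.67 and 7.10 in wild-type sorted cells, and 6.10 and 6.38 in total marrow, with changes of 0.81 (adjusted p = 0.012) and 0.71 (adjusted p = 0.024). Without total marrow replicate 1 neither was called (adjusted p 0.11 and 0.19), and the wild-type call was also lost without total marrow replicate 2 (0.055) or wild-type replicate 1 (0.076) or 3 (0.074). Tap1 read 7.09, 7.40 and 5.92 in YFP-positive cells, 7.27, 7.24 and 7.51 in wild-type sorted cells, and 7.38 and 7.35 in total marrow. YFP-positive replicate 3 stood well below the other arrays, the interval of the YFP-positive change of -0.56 ran from -1.46 to 0.34, and neither group was called. In the YFP-negative array Tap1 stood at 5.80 and Tap2 at 5.88 after loess, with changes of -1.20 (adjusted p = 0.099) and -0.04 (adjusted p = 0.94). Erap1, the aminopeptidase that trims peptides to length, read 6.90, 7.64 and 6.97 in YFP-positive cells, 7.08, 7.56 and 7.92 in wild-type sorted cells, and 6.84 and 6.84 in total marrow. Erap1 was higher than total marrow on each of these sorted arrays, but its changes of 0.33 and 0.68 did not pass the test (adjusted p 0.43 and 0.15).

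The immunoproteasome subunits, which replace the standard catalytic subunits in leucocytes and under interferon, stood at or below total marrow in YFP-positive and wild-type cells. Psmb8 read 8.33, 8.39 and 7.56 in YFP-positive cells, 8.35, 8.32 and 8.29 in wild-type sorted cells, and 8.98 and 8.85 in total marrow. Psmb9 read 9.65, 9.67 and 10.00 in YFP-positive cells, 9.72, 9.78 and 9.12 in wild-type sorted cells, and 10.44 and 10.18 in total marrow. Psmb8 was called lower in YFP-positive cells (-0.82, adjusted p = 0.038) and not in wild-type cells (-0.59, adjusted p = 0.13), and Psmb9 in wild-type cells (-0.77, adjusted p = 0.045) and not in YFP-positive cells (-0.54, adjusted p = 0.12), although no sorted array of these groups reached total marrow in either gene. Both calls were lost without either total marrow array, with adjusted p of 0.19 and 0.12 for Psmb8 and 0.27 and 0.11 for Psmb9 without replicate 1 and 2. Single sorted arrays also ended them, with adjusted p of 0.059 to 0.063 for Psmb8 without any 1 wild-type array, and of 0.056 to 0.072 for Psmb9 without wild-type replicate 1 or 3 or YFP-positive replicate 1 or 2. After loess neither was called, and the Psmb9 change in YFP-positive cells was 0.05. Psmb10 read 9.003, 8.84 and 9.12 in YFP-positive cells, 8.86, 8.96 and 8.22 in wild-type sorted cells, and 9.35 and 8.91 in total marrow, and was not called. In the YFP-negative array none of the 3 was called (0.31, -0.50 and -0.48).

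The standard subunits that these replace were also lower in YFP-positive cells. Psmb5 changed by -1.22, Psmb6 by -1.81 and Psmb7 by -1.98 in YFP-positive cells, all called, against -0.52, -0.84 and -0.81 in wild-type cells, none called. Of 17 proteasome and activator genes outside the 43, 12 were lower and none higher in YFP-positive cells on deposited values (median change -1.22) and 4 lower in wild-type cells (median -0.58). Of all rows 18.5% and 13.9% were called lower in these comparisons. After loess 4 of the 17 genes were lower in YFP-negative cells (median -0.70), 7 in YFP-positive cells (median -0.65) and 4 in wild-type cells (median -0.26). Beside Psmb6 and Psmb7, the list's largest called changes in YFP-positive cells were those of the core subunit Psma1 (-1.66) and the activator subunit Psme2 (-1.63), and Psmb5 is given as the counterpart of Psmb8. YFP-positive replicate 3 was the lowest sorted array in the YFP-positive and wild-type groups for Psmb5 (8.29), Psmb6 (7.75) and Psmb7 (6.54), as it was for Psmb8 and Tap1. Without it 12 of the 17 were still called lower in YFP-positive cells on deposited values (median -1.01). No gene of this list was called between YFP-positive and wild-type cells.

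Of the folding chaperones, which serve all glycoproteins and not MHC molecules alone, Calr and Pdia3 were higher in each sorted group, in the YFP-negative array after loess alone, and Canx was not called. Calr read 10.71, 10.73 and 10.37 in YFP-positive cells, 10.43, 10.51 and 10.77 in wild-type sorted cells, and 9.62 and 9.77 in total marrow, with changes of 0.91 (adjusted p = 0.0044) and 0.87 (adjusted p = 0.0058, and 0.059 without total marrow replicate 1). Pdia3 read 9.73, 9.57 and 9.54 in YFP-positive cells, 9.82, 9.94 and 9.93 in wild-type sorted cells, and 9.03 and 8.93 in total marrow, with changes of 0.63 (adjusted p = 0.0047) and 0.92 (adjusted p = 6.9e-04). Every sorted array of these groups exceeded total marrow in both genes. In the YFP-negative array Calr changed by 1.61 (adjusted p = 0.0017) and Pdia3 by 1.39 (adjusted p = 3.6e-04) after loess, but by 0.36 (adjusted p = 0.17) and 0.08 (adjusted p = 0.64) on deposited values. The loess changes in the other groups were 1.55 for Calr and 1.21 for Pdia3 in YFP-positive cells and 1.22 and 1.21 in wild-type cells. Canx read 9.35, 9.76 and 8.75 in YFP-positive cells, 9.48, 9.71 and 9.92 in wild-type sorted cells, and 9.52 and 9.53 in total marrow.

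Nlrc5, the class I transactivator, rose where Ciita fell. Its brightest row read 8.08, 8.43 and 8.26 in YFP-positive cells, 8.31, 8.43 and 8.52 in wild-type sorted cells, and 6.999 and 7.49 in total marrow. The groups did not overlap, and the changes were 1.01 (SE 0.18, adjusted p = 0.0042), 1.17 (adjusted p = 0.0020) and, with 8.31 after loess in the YFP-negative array, 1.55 (adjusted p = 0.0068). On deposited values the YFP-negative change was 0.16 (adjusted p = 0.56), and with the mean over the rows of Nlrc5 it was 0.56 after loess (adjusted p = 0.22). The gene has 19 rows, which sample separate stretches of it. In YFP-positive cells 18 of them changed upwards (median 0.67) and 3 were called higher, in wild-type cells 19 (median 0.86) with 4 called higher, and in the YFP-negative array 15 (median 0.30) with 2 called higher. None was called lower against total marrow. Of all rows 11%, 10.4% and 13% were called higher in these 3 comparisons. Between sorted groups, 1 of the 19 rows was called lower in the YFP-negative array than in YFP-positive (-1.12) and wild-type cells (-1.35), after loess.

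Both pathways sit side by side in the genome, and the size of the change differed from gene to gene along it. The stretch of chromosome 17 from H2-Oa to H2-Eb2 holds 14 protein-coding genes in the RefSeq table, 11 of them among the 43. In order these are H2-Oa and H2-DMa, then the class I genes Psmb9, Tap1, Psmb8 and Tap2, then H2-Ob, H2-Ab1, H2-Aa, H2-Eb1 and H2-Eb2. In YFP-positive cells H2-DMa changed by -4.15 on one side and H2-Ob by -1.99 on the other, while the 4 class I genes between them changed by -0.54, -0.56, -0.82 and 0.81. In wild-type cells the flanking class II changes were -4.21 and -2.47 and the class I changes -0.77, -0.03, -0.59 and 0.71. The intervals of the 4 class I genes lay wholly above those of both flanking genes in both groups. On the YFP-negative array the interval of Tap1 (-2.28 to -0.13) overlapped that of H2-Ob (-2.52 to -1.29).

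**Figure D3:**
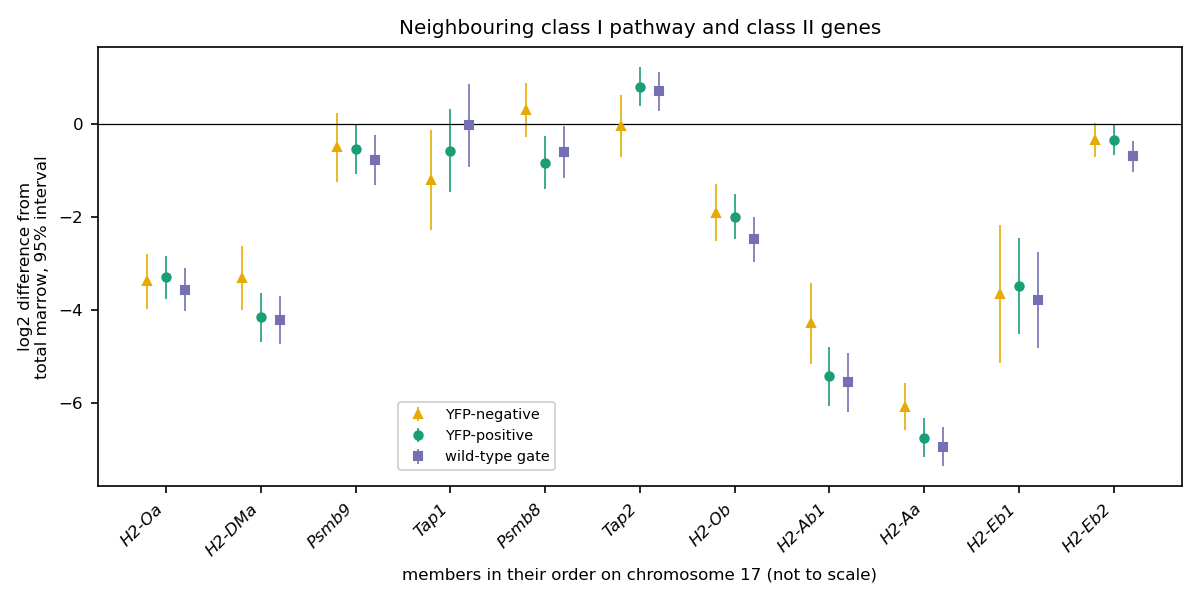
Log2 difference from total marrow, with 95% intervals, for the 11 described genes from H2-Oa to H2-Eb2 in their order on chromosome 17 (spacing not to scale): triangles YFP-negative, circles YFP-positive, squares wild-type gate. The class I genes Psmb9, Tap1, Psmb8 and Tap2 lie between -1.20 and 0.81 and stand between class II genes that reach -6.93.

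Over all 43 genes, 21 were called in YFP-positive cells (10 higher, 11 lower), 19 in wild-type cells (8 higher, 11 lower) and 16 in YFP-negative cells (7 higher, 9 lower), to be read against the shares of all rows given above. H2-Aa, H2-Ab1, H2-Eb1, H2-Oa, H2-Ob, H2-DMa, Cd74, Ciita and H2-T24 were lower in all 3 groups, and B2m, Tapbp, Calr, Pdia3 and Nlrc5 higher in all 3. On deposited values none of these 5 was called in the YFP-negative array. No gene was called in opposite directions, and 17 were called in no group. H2-Ke6, the dehydrogenase, read 6.38, 5.79 and 6.51 in YFP-positive cells, 7.0005, 6.57 and 6.33 in wild-type sorted cells, and 7.69 and 7.36 in total marrow, and was called in YFP-positive cells (-1.30, adjusted p = 0.0093, and 0.087 without total marrow replicate 1) but not in wild-type cells (-0.89, adjusted p = 0.0503).

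Markers of class II-bearing cells fell with the class II genes. Summed on the linear scale, the 9 class II genes reached 134, 140 and 206 in YFP-positive cells, 124, 140 and 117 in wild-type sorted cells, and 4335 and 3467 in total marrow. The 6 B cell markers summed to 89.9, 93.8 and 116 in YFP-positive cells, 92.7, 75.3 and 94.8 in wild-type sorted cells, and 4453 and 4288 in total marrow. YFP-positive replicate 3 was the highest sorted array of both sums, with H2-Eb1 at 6.22. On these sorted arrays the median class II gene stood at 3.31 to 3.97 and the median B cell marker at 3.75 to 4.10, all dim. The 13 macrophage and dendritic cell markers summed to 521, 223 and 265 in YFP-positive cells, 204, 184 and 181 in wild-type sorted cells, and 6600 and 5377 in total marrow, with 12 of 13 called lower in each sorted group. Among them Lyz2 read 8.34, 3.67 and 4.55 in YFP-positive cells. Neutrophil markers varied most between sorted arrays, at 4005, 1232 and 126 in YFP-positive cells and 1234, 175 and 123 in wild-type sorted cells, and did not order the arrays as class II did. The part of these cells in the class II difference was not tested.

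**Figure D4:**
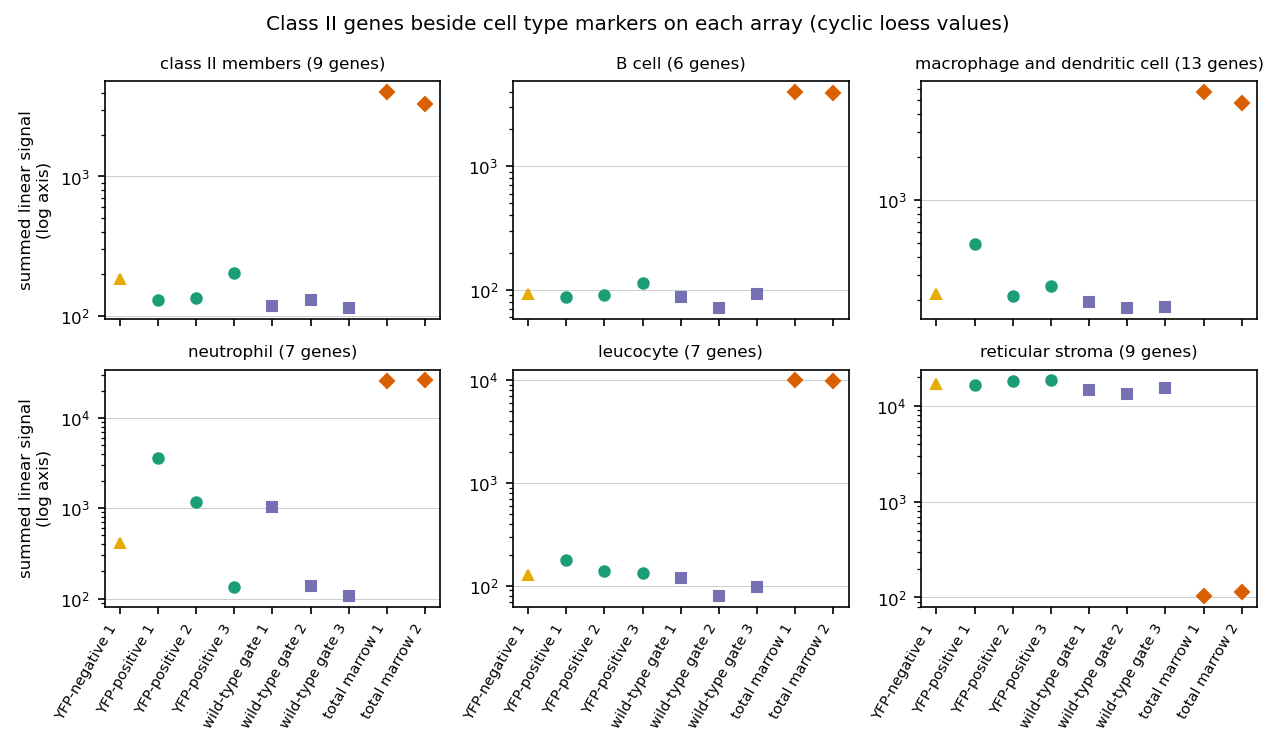
Summed linear signal after cyclic loess (log axis) of the class II genes and of 5 marker lists on each array, with YFP-negative at the left, then YFP-positive, wild-type gate and total marrow. The class II, B cell, macrophage and dendritic cell and leucocyte sums lie lower on all 7 sorted arrays than on the total marrow arrays, and reticular stroma markers lie higher.

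No antigen presentation gene was called between YFP-positive and wild-type sorted cells. None of the 43 genes and 0% of all rows were called by limma, where 11 of the 43 (9 higher, 2 lower) and 14.9% of all rows had an unadjusted p under 0.05, and the smallest adjusted p among the 43 was 0.26. The interval of the difference stayed within 1 log2 unit of 0 in 39 of 43 genes. H2-Eb1 (0.31, interval -0.61 to 1.23), Tap1 (-0.54, -1.34 to 0.27), Cd74 (0.68, 0.08 to 1.29) and H2-Q5 (-0.49, -1.02 to 0.04) had intervals that reached past 1 log2 unit.

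Small shifts in the class II genes ran the same way. All 9 class II differences between YFP-positive and wild-type cells were positive, from 0.06 to 0.68, with a median of 0.28 beside 0.05 over all rows, and the intervals of H2-Eb2, H2-Ob and Cd74 lay above 0. On deposited values every YFP-positive array exceeded every wild-type array in 16 of the 43 genes, where 13% of all rows did so. They were 5 class II genes, Ciita and 10 heavy chains, 9 of which were dim on all arrays. Pdia3 was the only gene with the groups apart in the other direction (8.72% of all rows). After loess only H2-T24, H2-M2, H2-M5, H2-Eb2, H2-Ob and Cd74 of the 16 stayed apart. The others overlapped, among them H2-Oa (lowest YFP-positive array 3.37, highest wild-type array 3.42), Ciita (3.66 and 3.68) and H2-M9 (3.55 and 3.63). Without YFP-positive replicate 3, the array with the highest class II and B cell sums, 6 of 9 class II differences were positive and the range ran from -0.15 to 0.45. With 1 exception (H2-Eb1), the class II values compared here were dim or close to it on all 6 arrays.

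**Figure D5:**
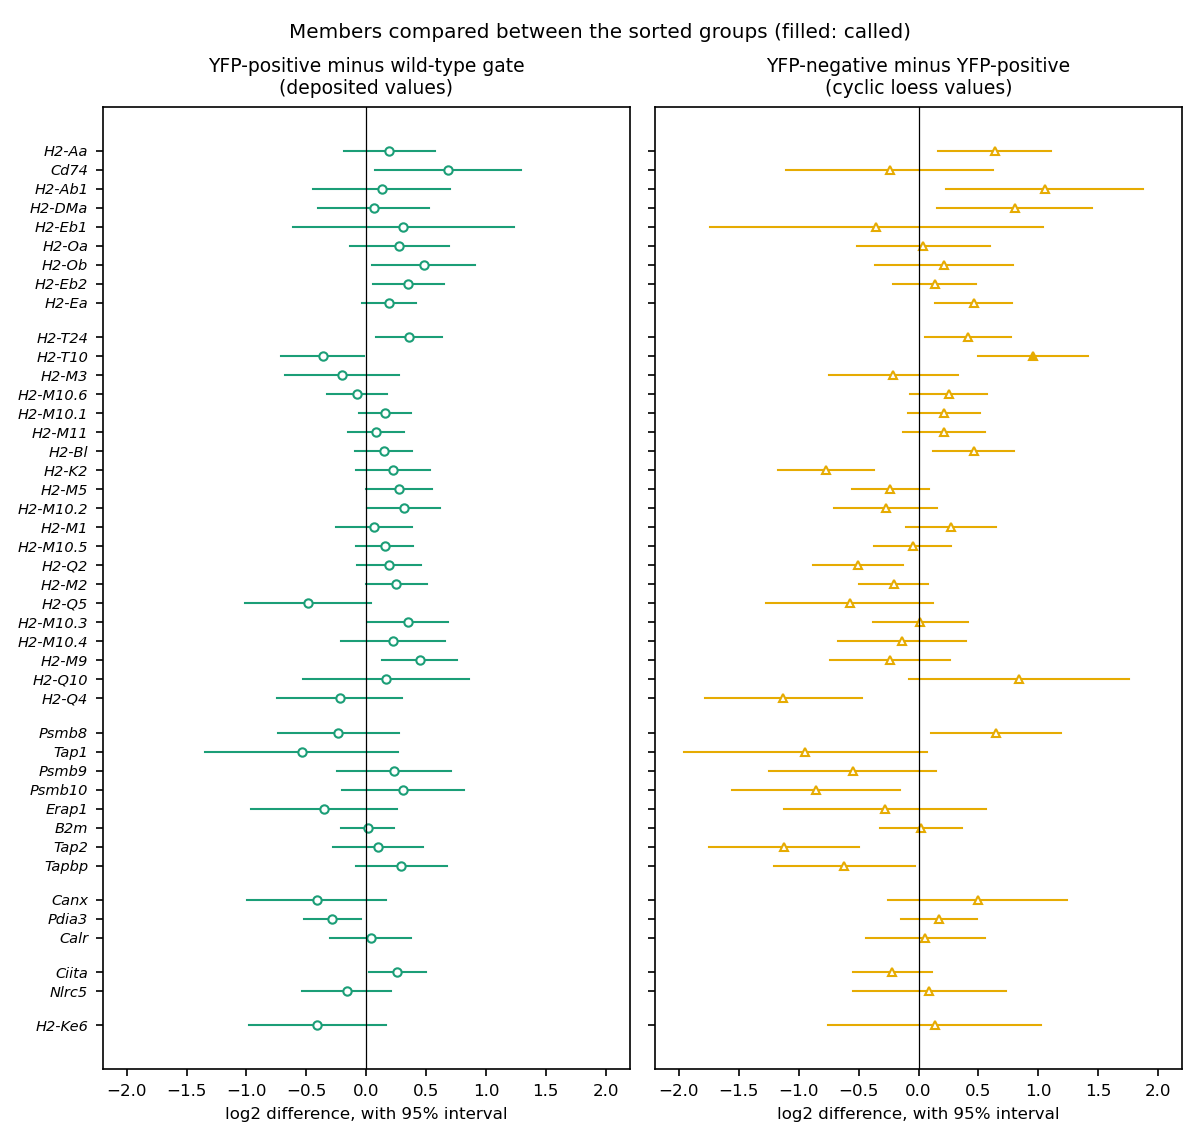
Log2 differences with 95% intervals for the 43 genes between sorted groups: YFP-positive minus wild-type gate on deposited values (left) and YFP-negative minus YFP-positive on cyclic loess values (right), filled where called. No gene is called on the left and only H2-T10, at 0.96, on the right.

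For the single YFP-negative array the spread had to be taken from the other groups. Against YFP-positive cells 1 of the 43 genes was called, where 3.98% of all rows were (2.62% higher, 1.36% lower), and 14 of the 43 had an unadjusted p under 0.05, where 21.9% of all rows did. H2-T10 stood at 6.42 in the YFP-negative array, against 5.40, 5.51 and 5.49 in YFP-positive cells, a difference of 0.96 (SE 0.19, adjusted p = 0.044). The call was lost without any 1 YFP-positive or total marrow array, or without wild-type replicate 2 (adjusted p 0.055 to 0.092). Against wild-type cells (5.94, 5.69 and 5.44) the H2-T10 difference of 0.73 was not called (adjusted p = 0.082). None of the 43 was called against wild-type cells by limma, where 4.56% of all rows were (3% higher, 1.57% lower). 16 of the 43 (11 higher, 5 lower) had an unadjusted p under 0.05, where 22.3% of all rows did, with a smallest adjusted p of 0.052 for H2-T24.

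The YFP-negative array read low in Tap2, H2-Q4 and H2-K2 and high in several class II genes, without a call. Tap2 stood at 5.88, against 7.08, 6.80 and 7.13 in YFP-positive cells, a difference of -1.12 (interval -1.75 to -0.50, adjusted p = 0.063). H2-Q4 stood at 6.56, against 7.72, 7.92 and 7.40 in YFP-positive cells, a difference of -1.13 (interval -1.79 to -0.47, adjusted p = 0.072). H2-K2 differed by -0.77 (adjusted p = 0.055). H2-Ab1 stood at 5.15, against 3.75, 3.93 and 4.60 in YFP-positive cells, a difference of 1.05 (interval 0.23 to 1.87, adjusted p = 0.14). H2-DMa (0.80) and H2-Aa (0.64) lay above all 3 YFP-positive arrays, while Cd74 (-0.24) and H2-Eb1 (-0.35) lay within their range.

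The shared rows of the classical genes were lower in the YFP-negative array than in either other sorted group. The row with H2-D1 first stood at 10.82 after loess, against 11.86, 11.76 and 11.63 in YFP-positive cells and 11.54, 11.60 and 11.63 in wild-type cells, differences of -0.93 (adjusted p = 0.020) and -0.77 (adjusted p = 0.030). The row with H2-K1 first stood at 10.43, against 11.10, 11.11 and 10.997 in YFP-positive cells and 11.001, 10.92 and 10.95 in wild-type cells, differences of -0.64 (adjusted p = 0.031) and -0.53 (adjusted p = 0.048). In that fit 4.24% and 4.77% of rows were called. B2m differed by 0.02 from YFP-positive and by 0.34 from wild-type cells, neither called. As the group has 1 array, the array and the cell population cannot be told apart.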

How the data were processed

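Per the submitters' processing notes the authors made the deposited log2 values with RMA in Affymetrix Expression Console 1.3.1. RMA comprises background correction, quantile normalization and probe summary. The YFP-negative array had a deposited median of 3.46, against 4.51 to 4.60 on the others. A quantile normalization of all 9 arrays together gives them a common distribution. Whether that array was normalized apart from the rest was not tested. Per the labels' protocols, amplified cDNA (NuGEN Ovation Pico WTA V2) was hybridised. Of 35556 rows, 21789 carried 1 symbol, 1621 several and 12146 none. Symbols came from the array's platform annotation. limma 3.58.1 in R 4.3.3 fitted 1 mean per group over all 9 arrays (5 residual degrees of freedom), with two-sided tests and Benjamini-Hochberg adjustment over the 21789 rows. Comparisons with the YFP-negative array used cyclic loess values, the others the deposited values. The fit was tested on simulated data. Members, lists and the genes described were chosen with earlier results of these data known. Values per array are given for the class II genes, both transactivators, H2-K1, H2-D1, H2-M3, the class I pathway genes and chaperones, and the H2-Q and H2-T genes called in any comparison. Of each further list, up to 4 called genes with the largest change and up to 2 not called are named. Rows with several symbols were tested in a fit added after seeing the data. Promoter letters came from RefSeq. Alternatives covered other scalings, a filter on dim rows, other variance models, a replicate block and leaving out each array. Same-numbered replicates did not deviate together (correlations of -0.08 to 0.06), so numbers were not used as pairs. The number of arrays limits the precision. The proteasome list after loess or without 1 array, and the rows shared by H2-K1 and H2-D1 on deposited values, were alternatives chosen after seeing the data.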

Additional observations from a re-analysis of the deposited data

Results flagged for a closer look

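In 5 results the change from total marrow differed between sorted groups by the test of the difference itself, all of them against the single YFP-negative array on cyclic loess values. H2-T10 was higher by 0.96 on the log2 scale in the YFP-negative array than in YFP-positive cells (limma adjusted p = 0.044). The row of H2-D1, LOC547349 and H2-K1 differed by -0.93 from YFP-positive cells (adjusted p = 0.020) and by -0.77 from wild-type sorted cells (adjusted p = 0.030). The row of H2-K1, LOC547349 and H2-D1 differed by -0.64 from YFP-positive cells (adjusted p = 0.031) and by -0.53 from wild-type sorted cells (adjusted p = 0.048). The YFP-negative array stood below all 6 other sorted arrays in both rows and above all 6 in H2-T10. On deposited values the H2-T10 difference from YFP-positive cells was -0.33 (adjusted p = 0.18). The deposited differences of the row with H2-D1 first were -1.41 from YFP-positive and -1.56 from wild-type cells, and those of the row with H2-K1 first -1.22 and -1.40 (adjusted p 0.0011 to 0.0017). They include the lower scale of the whole array. On deposited values the median over the 21789 rows with 1 symbol was -0.91 and -0.88 in these comparisons, with 16522 and 16353 rows called. The array and the cell population cannot be told apart.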

How the results depend on the processing

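The 7 class II genes called lower against total marrow in YFP-positive cells were called lower in 19 of 19 other settings, as they were in 19 of 19 in wild-type and 18 of 18 in YFP-negative cells. The number of arrays limits the rest. Members called lay between 13 and 21 on leaving out 1 array in YFP-positive cells (13 without total marrow replicate 1, 21 in full) and in wild-type cells, between 13 and 19 in YFP-negative cells, and stayed at 0 between YFP-positive and wild-type cells. On deposited values 30 members were called in YFP-negative cells against total marrow, 34 against YFP-positive and 26 against wild-type cells, all of them lower. In these comparisons 15666, 16522 and 16353 of the 21789 rows were called, so the counts go with the lower scale of the whole array. Against YFP-positive and wild-type cells, 1683 and 1720 rows were called under quantile normalization, 2512 and 4458 with a common median, and 1093 and 2091 with array weights. Against YFP-positive cells the count was 5 under quantile normalization, 10 with a common median, 2 with array weights, 0 with a filter on dim rows, an intensity trend with robust variances, the replicate block or these 2 groups only, and 0 to 3 without 1 array (3 without YFP-positive replicate 3). Against wild-type cells it was 2 under quantile normalization, 13 with a common median, 1 with trend and robust variances, 7 with array weights, 1 with several-symbol rows, and 0 to 7 without 1 array (7 without YFP-positive replicate 3). With the replicate block 15, 18 and 17 members were called against total marrow in YFP-negative, YFP-positive and wild-type cells and 0 in each comparison between sorted groups. Whether the shared numbers pair the samples is not known. The median change of the heavy chains became 0.19 under loess in YFP-positive cells, 0.0185 to 0.11 without 1 array in wild-type cells, and -0.69 on deposited values and 0.41 with a common median in YFP-negative cells. That of the peptide pathway became 0.52 (loess) and 0.49 (quantile) in YFP-positive cells, 0.42 and 0.43 in wild-type cells, and -1.28 (deposited) and -0.19 (common median) in YFP-negative cells. That of the chaperones became 1.21 and 1.09 in YFP-positive cells, 1.21 and 1.13 in wild-type cells, and 0.0811 (deposited), 1.17 (common median) and 1.302 to 1.41 (without 1 array) in YFP-negative cells. The class II median ran from -3.93 to -3.26 without 1 array in YFP-positive cells and from -3.79 to -3.27 in YFP-negative cells, where it was -4.63 on deposited values. On deposited values H2-T10 reversed to -0.76 against total marrow and -0.33 against YFP-positive cells in the YFP-negative array, and Tapbp to -0.37 against total marrow. The median of all rows moved by 0.20 to 0.25 under the common median and by -0.91 to -0.85 on deposited values. The cause was not tested beyond this.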

Other observations

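Class I-like genes outside the H2 names were higher in sorted cells where they were called. Set against total marrow, 4 of the 7 measured were higher and none lower in YFP-positive cells, and 3 were higher in each of the other sorted groups. Cd1d1, which presents lipids to NKT cells, changed by 2.22 in YFP-negative, by 2.13 in YFP-positive and by 2.47 in wild-type cells on the log2 scale. Mr1, which presents vitamin metabolites to MAIT cells, changed by 1.77, 1.54 and 1.76 in the same order of groups, and Hfe, a regulator of iron uptake, by 1.70, 1.29 and 1.39. The YFP-negative changes are after loess and the others as deposited. On deposited values the YFP-negative array read 6.06 for Cd1d1, 4.69 for Mr1 and 6.11 for Hfe, against total marrow means of 5.28, 4.34 and 5.85. Called rows made up 26.2%, 29.5% and 24.3% of all rows in these comparisons. Cd1d2 read 6.13, 6.85 and 6.36 in YFP-positive cells, 6.37, 5.78 and 6.85 in wild-type sorted cells, and 5.17 and 5.60 in total marrow as deposited. In the YFP-negative array Cd1d2 stood lower than total marrow, at 4.46 after loess against 4.92 and 5.41. Azgp1 and Tapbpl also stood below both total marrow arrays there after loess, and Procr above them.

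Costimulatory genes, which T cells read beside the peptide, were mostly lower or not called. Of 10 measured, 1 was higher, 4 lower and 5 not called in each sorted group. Of all rows 29.5%, 24.3% and 26.2% were called in YFP-positive, wild-type and YFP-negative cells. In YFP-positive cells Cd86 changed by -1.40, Cd40 by -1.15, Icosl by -0.85 and Cd276 by 0.83, the 4 largest called changes.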
